A study of Mus musculus with 16 samples.

Results

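The genes described here are 7 mouse genes whose induction by progesterone (P4) was larger in uteri that overexpress progesterone receptor isoform B (PRB) than in uteri that overexpress isoform A (PRA): Pate4, Ms4a8a, Slc5a5, Cyp2j11, Acsbg1, Adh6a and Ctse. They are 7 of the 31274 features of the deposited expression table, and they were picked on the values reported below, so their levels and responses are given as a description with no test. The RNA came from whole uteri of mice ovariectomized 2 weeks earlier and collected 6 h after P4 or oil, and the labels have the females kept until 8 weeks of age. There were 4 groups of 4 libraries, 16 in all: PgrcrePgrBLsL/+ mice with P4 (PRB P4), the same strain with oil (PRB oil), PgrcrePgrALsL/+ mice with P4 (PRA P4) and the same strain with oil (PRA oil). Both strains carry a Cre recombinase driven by Pgr and a Cre-activated isoform transgene, so every library comes from a strain with an overexpressed receptor, and a strain free of transgenes is not part of the comparison. Cre under Pgr acts in the cells that express the receptor, which in the uterus include epithelium, stroma and muscle, and whole-uterus RNA does not separate them. In the labels, the position names follow strain and treatment, so position cannot be told apart from the groups. The treatment field instead mentions mating and dissection on pregnancy day 4, at odds with the titles, tissue characteristics and design text that put the samples in these groups.

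PRA and PRB are made from the same gene, Pgr, and share the DNA-binding and ligand-binding domains, while PRB has a longer N-terminus with an additional activation region. Once bound to progesterone, the receptors act on genes through DNA elements that other steroid receptors also recognize, and in the uterus they govern the change of the epithelium and stroma that precedes implantation. The 7 genes encode unrelated kinds of protein. Pate4 encodes a small secreted protein of the prostate and testis expressed family, known in the mouse from male accessory gland secretions, and Ms4a8a a multi-pass membrane protein of the MS4A family. Slc5a5 is the sodium/iodide symporter, the transporter that loads the thyroid with iodide. Cyp2j11 belongs to the CYP2J subfamily of cytochromes P450, several of which oxidize arachidonic acid. Acsbg1 is an acyl-CoA synthetase that activates long-chain fatty acids, Adh6a an alcohol dehydrogenase, and Ctse cathepsin E, an intracellular aspartic protease.

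The genes lie on 6 chromosomes, and Pate4 and Acsbg1 share chromosome 9 at a distance that puts them in separate neighbourhoods. In the GENCODE annotation of GRCm38, the assembly also called mm10, Pate4 spans chr9:35607093-35611941 on the minus strand with 3 exons and Acsbg1 chr9:54604877-54661870 on the minus strand with 14 exons. Ms4a8a spans chr19:11067471-11081102 on the minus strand with 7 exons, and Slc5a5 chr8:70882889-70892757 on the minus strand with 15 exons. Cyp2j11 spans chr4:96294508-96348662 on the minus strand with 9 exons. Adh6a spans chr3:138313286-138331134 on the plus strand with 9 exons, and Ctse chr1:131638306-131675505 on the plus strand with 10 exons.

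The 7 genes were chosen for a shared response, and their promoters were read for steroid receptor elements. RefSeq promoter windows of GRCm38.p6 were at hand for 5 of the 7 genes, and each was read from 250 bases before the annotated start to 30 bases after it. Both strands were searched for the steroid receptor half-site TGTTCT, a relaxed receptor palindrome (GNACA and TGTNC, 3 bases apart), the estrogen response element in its strict form (GGTCA and TGACC, 3 bases apart) and the TATA box TATAAA. No match overlapped another. The half-site lay in 2 of the 5 windows and in 17.8% of all 32851 windows, and the TATA box in 1 of the 5 and in 13.1% of all. The palindrome and the estrogen response element were in none of the 5 and in 0.435% and 0.067% of all windows. The 4 windows that hold a match or differ most in base composition follow in the direction of transcription, with the matches in capitals, which mark the half-site read on the opposite strand in Ms4a8a and Cyp2j11 and the TATA box in Adh6a:
Ms4a8a (chr19:11081074-11081353, minus strand): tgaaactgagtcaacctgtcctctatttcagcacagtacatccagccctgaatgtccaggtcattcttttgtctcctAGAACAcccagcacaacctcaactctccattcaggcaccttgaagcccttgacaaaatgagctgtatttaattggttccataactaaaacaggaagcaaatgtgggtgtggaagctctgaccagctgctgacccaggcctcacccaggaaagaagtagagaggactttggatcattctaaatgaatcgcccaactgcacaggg
Cyp2j11 (chr4:96348651-96348930, minus strand): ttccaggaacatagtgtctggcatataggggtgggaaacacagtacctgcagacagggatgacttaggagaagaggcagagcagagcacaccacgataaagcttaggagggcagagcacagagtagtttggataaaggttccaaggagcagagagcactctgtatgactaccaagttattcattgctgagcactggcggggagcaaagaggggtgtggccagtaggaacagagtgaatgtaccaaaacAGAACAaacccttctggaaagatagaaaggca
Adh6a (chr3:138313036-138313315, plus strand): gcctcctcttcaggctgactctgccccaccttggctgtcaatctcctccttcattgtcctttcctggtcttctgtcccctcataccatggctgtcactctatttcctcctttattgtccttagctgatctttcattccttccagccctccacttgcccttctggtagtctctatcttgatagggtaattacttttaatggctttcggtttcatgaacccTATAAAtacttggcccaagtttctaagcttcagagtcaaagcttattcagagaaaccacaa
Slc5a5 (chr8:70892728-70893007, minus strand): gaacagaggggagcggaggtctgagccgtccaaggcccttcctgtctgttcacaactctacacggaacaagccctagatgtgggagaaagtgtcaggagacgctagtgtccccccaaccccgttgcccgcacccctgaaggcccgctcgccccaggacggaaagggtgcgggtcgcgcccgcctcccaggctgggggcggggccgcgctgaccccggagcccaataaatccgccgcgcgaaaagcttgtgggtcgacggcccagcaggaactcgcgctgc
Counted from the annotated start, the half-site occupied bases -173 to -168 in Ms4a8a and straddled the start from -2 to 4 in Cyp2j11, and the TATA box of Adh6a occupied bases -31 to -26. The Slc5a5 window was the richest of the 5 in G and C (67.1%, with 25 CpG dinucleotides), against 45.4% to 48.9% and at most 2 CpG dinucleotides in the other 4 and a median of 52.5% and 6 over all windows. The Acsbg1 window (chr9:54661856-54662135, minus strand) held none of these motifs. These are matches of letters in a window, and occupancy was not measured here.

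Expression was deposited as FPKM, fragments normalized to transcript length and depth, so levels can be compared between genes per length. The spacing of the lowest values implied between 54.6 M and 66.8 M fragments per library, so that 1 FPKM stood for about 58.6 to 71.7 fragments of Pate4 and 160 to 196 fragments of the longer Slc5a5. Pgr itself, summed over isoforms and over transgene and endogenous gene, was at 121, 122, 78.5 and 126 FPKM in PRB P4, at 79.4 to 87.6 FPKM in PRB oil, at 72.1 to 76.4 FPKM in PRA P4 and at 56.8 to 68.9 FPKM in PRA oil. The 4 PRB P4 values all lay above the PRA P4 values, with a fitted log2 difference of 0.57 (limma, adjusted p = 0.00575). The 4 PRB oil values lay above the PRA oil values as well, but that difference did not pass the test (0.36, SE 0.12, limma, adjusted p = 0.588). The P4 response of Pgr did not differ between the strains past the threshold (0.21, SE 0.17, limma, adjusted p = 0.583), but without PRB P4 replicate 3 its difference was 0.37 and passed (adjusted p = 0.0332; 0.0332 to 0.724 over the 16 fits that each leave out 1 library). The part of receptor RNA in the results was not tested. PRB P4 replicate 3, the library with the lowest Pgr value of its group, also stood farthest from its group in overall expression, with a root mean square distance of 0.479 on the log2 scale against 0.332 to 0.413 in the other 15 libraries. The uterine genes Hoxa10, Hoxa11 and Esr1 averaged 214, 246 and 48.3 FPKM in PRB P4 and none of the 6 uterine marker genes was listed at 0 in all libraries.

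Each response below is the difference of the group means of log2(FPKM + 1), P4 minus oil, and the difference of responses is the PRB response minus the PRA response. The pseudocount of 1 shrinks the responses of genes whose oil level is far below 1 FPKM, which is the case for most of the 7. In all 7 genes every P4 library was above every oil library in both strains. Among the 15408 features tested (mean of at least 1 FPKM), 32.6% lay higher without overlap in the PRB comparison and 35% in the PRA comparison. Every PRB P4 library was also above every PRA P4 library in all 7 genes, a separation found in 9.23% of features tested. With oil, the ranges of the strains overlapped in 6 genes, and only the 4 PRB oil values of Ctse lay wholly above PRA oil, as in 1.25% of features tested. Since these values chose the genes, nothing is read from these shares. The median log2 response of the 7 genes was 3.33 in PRB and 1.31 in PRA, beside medians of 0.00 and 0.01 over all features tested, and the median difference of responses was 2.11, beside 0.01. In whole-uterus RNA, more cells that express a gene and more RNA per cell cannot be told apart.

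**Figure D1:**
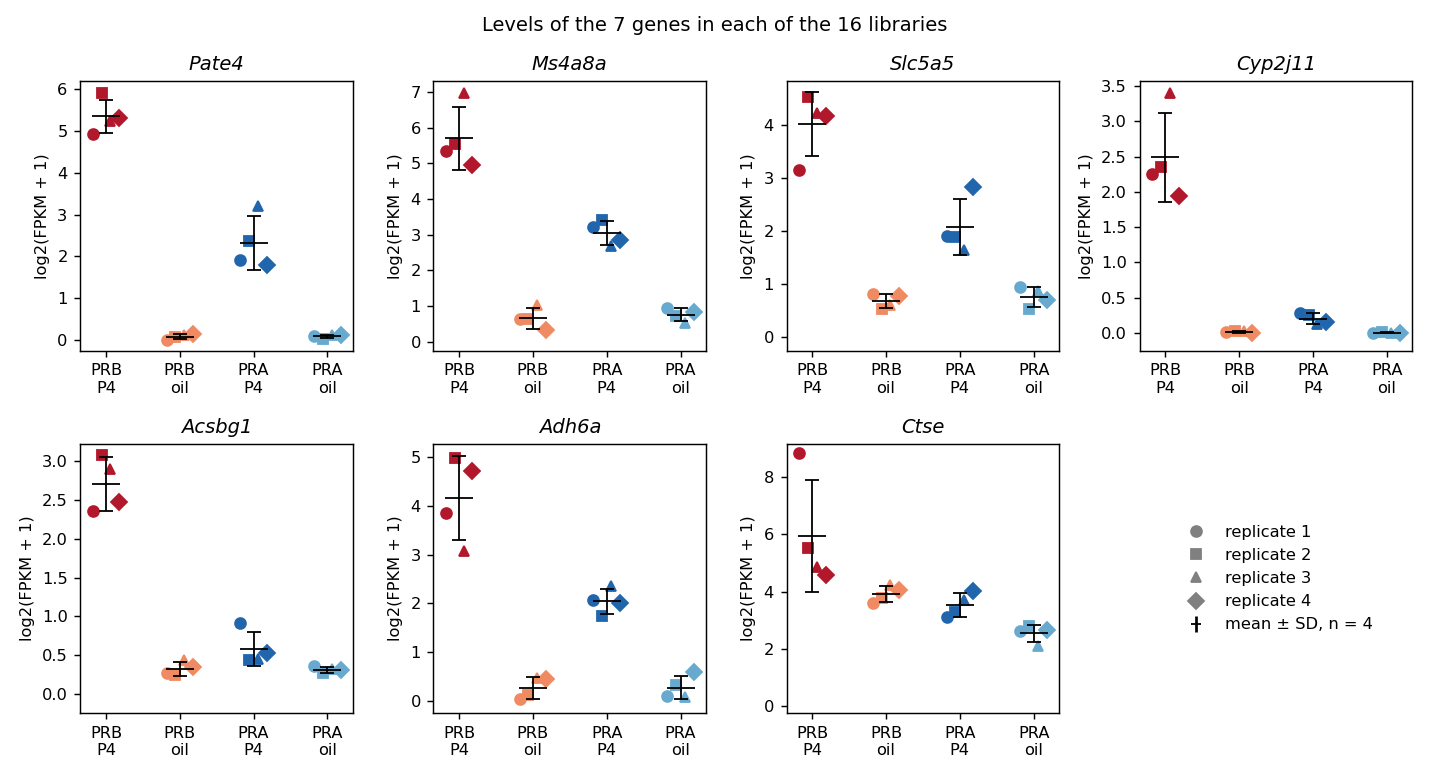
Level of each of the 7 genes as log2(FPKM + 1) in all 16 libraries, with one marker shape per replicate number and the mean ± SD of 4 libraries in black. PRB P4 is the highest group in every panel, and in Ctse 1 library, PRB P4 replicate 1, stands far above the other 3.

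Pate4 had the largest difference of responses of the 13173 tested features that carry a gene name. Among all 15408 features tested it ranked 21. It stood at 29.4, 58.4, 36.6 and 38.8 FPKM in the 4 PRB P4 libraries, against 0, 0.0575, 0.0816 and 0.107 FPKM in PRB oil. In PRA P4 it stood at 2.78, 4.2, 8.16 and 2.45 FPKM, against 0.0697, 0.0173, 0.0824 and 0.0874 FPKM in PRA oil. The gene was thus close to silent with oil in both strains, where its values rest on at most 8 fragments per library, and present in all 8 P4 libraries. The mean was 40.8 ± 12.4 FPKM in PRB P4 and 4.4 ± 2.62 FPKM in PRA P4 (SD, n = 4 each), a 9.28-fold ratio, and the lowest PRB P4 library was 3.6-fold above the highest PRA P4 library. The log2 responses were 5.26 in PRB and 2.23 in PRA, and they differed by 3.03 (SE 0.35). Pate4 overlaps exons of Pate2 on the opposite strand, with an identical stretch of 129 bases. Whether the counting used strand is not given in the sources used here, so fragments of that stretch cannot be told apart. Pate2 was much lower than Pate4, at 1.78, 2.62, 9.45 and 2.04 FPKM in PRB P4, and its highest library was replicate 3, in which Pate4 was not the highest.

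Ms4a8a had the highest median of the 7 genes in PRB P4, at 42.7 FPKM. It stood at 39.8, 45.6, 125 and 30.1 FPKM in PRB P4, against 0.556, 0.551, 1.06 and 0.25 FPKM in PRB oil. The PRA P4 libraries had 8.31, 9.68, 5.4 and 6.25 FPKM, against 0.925, 0.666, 0.44 and 0.783 FPKM in PRA oil. PRB P4 replicate 3 was 2.74-fold above the next library of its group, while the PRA P4 libraries spread 1.79-fold. The group means with P4 were 60.1 ± 43.7 FPKM in PRB and 7.41 ± 1.94 FPKM in PRA (SD, n = 4 each), an 8.11-fold ratio, while the ratio of the medians was 5.87. The responses were 5.05 in PRB and 2.28 in PRA, with a difference of 2.77 (SE 0.46), which was 2.34 without PRB P4 replicate 3.

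Slc5a5 was measurable with oil, on 83 to 173 fragments per library. It stood at 7.83, 22.1, 17.7 and 16.9 FPKM in PRB P4, against 0.754, 0.44, 0.534 and 0.713 FPKM in PRB oil. The values in PRA P4 were 2.76, 2.7, 2.13 and 6.14 FPKM, against 0.923, 0.453, 0.832 and 0.619 FPKM in PRA oil. The gap between the strains with P4 was the narrowest of the 7, since PRB P4 replicate 1, the lowest of its group, was 1.28-fold above PRA P4 replicate 4, the highest of its group. The means with P4 were 16.1 ± 5.99 FPKM in PRB and 3.43 ± 1.83 FPKM in PRA (SD, n = 4 each), a 4.7-fold ratio. That was the smallest ratio of means of the 7, but not the smallest ratio of medians. By medians Slc5a5 was at 6.34, with Ctse (3.48), Ms4a8a (5.87) and Adh6a (6.19) lower and Pate4, Cyp2j11 and Acsbg1 higher. The responses were 3.33 in PRB and 1.31 in PRA, with a difference of 2.02 (SE 0.39).

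Cyp2j11 was the gene with the highest ratio between the strains. It stood at 3.75, 4.12, 9.56 and 2.86 FPKM in PRB P4, against 0.00808, 0.0163, 0.0236 and 0 FPKM in PRB oil. The PRA P4 uteri had 0.22, 0.189, 0.0927 and 0.112 FPKM, against 0, 0.00811, 0 and 0 FPKM in PRA oil. The PRB P4 values correspond to about 331 to 1097 fragments per library, the PRA P4 values to 11 to 26 and the oil values to at most 3. The ratio of the P4 means, 5.07 ± 3.03 FPKM in PRB and 0.153 ± 0.0607 FPKM in PRA (SD, n = 4 each), was 33.1-fold, and the lowest PRB P4 library was 13-fold above the highest PRA P4 library. On the log2(FPKM + 1) scale the responses were 2.47 in PRB and 0.20 in PRA, with a difference of 2.27 (SE 0.31). That value depends on the pseudocount more than for the other genes: it was 4.10 with a pseudocount of 0.1 and 0.92 with one of 5, and the PRA response was 1.28 with a pseudocount of 0.1. Its closest relative by sequence in the annotation, Cyp2j8, is 88.9% identical over 1510 bases, so some fragments could be shared, which was not tested. Cyp2j8 was listed at a mean of 0.129 FPKM in PRB P4 and 0.0307 FPKM in PRA P4.

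Acsbg1 had the smallest SE of the difference of responses among the 7. It stood at 4.13, 7.46, 6.46 and 4.57 FPKM in PRB P4, against 0.201, 0.186, 0.349 and 0.273 FPKM in PRB oil. PRA P4 libraries held 0.881, 0.353, 0.368 and 0.436 FPKM, against 0.28, 0.202, 0.253 and 0.238 FPKM in PRA oil. The PRA P4 libraries were all above PRA oil, but 3 of them by little, and replicate 1 was 2.02-fold above the next. The means with P4 were 5.66 ± 1.57 FPKM in PRB and 0.509 ± 0.25 FPKM in PRA (SD, n = 4 each), an 11.1-fold ratio. The responses were 2.38 in PRB and 0.27 in PRA, with a difference of 2.11 (SE 0.21) that was 3.26 with a pseudocount of 0.1 and 0.94 with one of 5. Acsbg1 and Cyp2j11 are the 2 genes that reached the mean of 1 FPKM required for fitting through the PRB P4 libraries alone.

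Adh6a stood at 13.5, 30.5, 7.41 and 25.1 FPKM in PRB P4, against 0.0246, 0.0993, 0.383 and 0.364 FPKM in PRB oil. In the PRA P4 group the values were 3.18, 2.34, 4.13 and 3.05 FPKM, against 0.0746, 0.259, 0.0624 and 0.503 FPKM in PRA oil. Unlike Ms4a8a and Cyp2j11, it was lowest in PRB P4 replicate 3, and the PRB P4 libraries spread 4.12-fold, whereas the PRA P4 libraries spread 1.76-fold. The means with P4 were 19.1 ± 10.6 FPKM in PRB and 3.18 ± 0.734 FPKM in PRA (SD, n = 4 each), a 6.02-fold ratio. The responses were 3.88 in PRB and 1.77 in PRA, with a difference of 2.11 (SE 0.44), which was 2.47 without PRB P4 replicate 3.

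Ctse departed from the other 6 and from the name of the group. It stood at 452, 44.9, 28.2 and 23 FPKM in PRB P4, against 11.1, 12.7, 17.8 and 15.6 FPKM in PRB oil. PRA P4 values were 7.65, 8.8, 12.2 and 15.4 FPKM, against 5.17, 5.89, 3.26 and 5.3 FPKM in PRA oil. It was the only one of the 7 with a sizeable level in oil, and its order with no hormone already had PRB above PRA, while PRB oil and PRA P4 overlapped. The responses were 2.03 in PRB and 1.00 in PRA, with a difference of 1.03 (SE 0.94). Without PRB P4 replicate 1, which was 10.1-fold above the next library, the PRB response was 1.08 and the difference of responses was 0.07. The other 3 PRB P4 libraries averaged 32 ± 11.4 FPKM (SD, n = 3), still above every PRA P4 library, but a larger response in PRB than in PRA rests on that 1 library. Ctse had the largest excess in PRB P4 replicate 1 of all named features tested, followed by Rmrp (28.3 FPKM against at most 3.96 in the other 3 libraries) and Fam73a (65.6 against at most 15.2). The smooth muscle marker sum was also highest in that library, at 1730 FPKM against 1030 at the lowest in the group, replicate 3. In PRA P4 it reached 1680 FPKM. The ovary sum was likewise highest of the group in PRB P4 replicate 1 (19.1 FPKM). The glandular, oviduct and mesothelium sums were lowest there (24.3, 6.74 and 90.5 FPKM). The part of these cell types in the Ctse value was not tested.

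**Figure D2:**
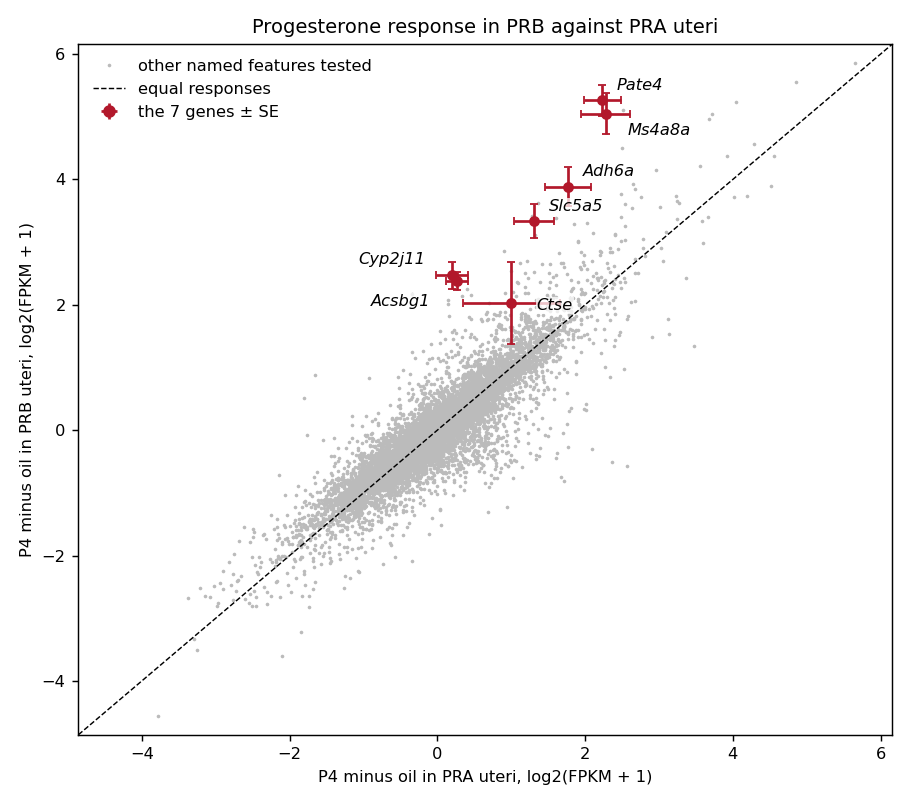
Log2 response to P4 in PRB uteri (vertical) against that in PRA uteri (horizontal), with the 7 genes in red with their SE and the other named features tested in grey. All 7 lie above the dashed line of equal responses, from Ctse with 2.03 against 1.00 to Pate4 with 5.26 against 2.23.

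The difference of responses placed 6 of the genes at ranks 1, 2, 7, 10, 11 and 12 among the 13173 named features. The order was Pate4, Ms4a8a, Cyp2j11, Acsbg1, Adh6a and Slc5a5, and Ctse was at rank 105. Among all 15408 features tested, those without a gene name included, the same 6 genes ranked 21, 22, 42, 49, 50 and 52. Ctse ranked 205 there. Between the ranks among named features stood 6 that are not among the 7: Calca (2.61), Gdpd3 (2.54), Prap1 (2.51), Atp6v0d2 (2.32), Scube2 (2.26) and Cyp26a1 (2.13). Calca, Gdpd3, Prap1 and Atp6v0d2 did not pass the test for the difference (limma, adjusted p = 0.0569, 0.109, 0.316 and 0.238). Gdpd3 was not called for a rise in PRB (0.88), fell in PRA (-1.66) and was lower in PRB than in PRA with oil (-3.54). Prap1 and Atp6v0d2 were highest in PRB P4 replicate 3, at 380 and 44.3 FPKM. Among the named features after Slc5a5 were Areg (2.00), Setdb2 (1.96) and Phf11c (1.87). For the 6 genes other than Ctse, the difference lay between 1.84 and 3.32 when each of the 16 libraries was left out in turn. With a pseudocount of 5 it lay between 0.92 and 2.29. The genes were chosen for this difference, so nothing is read from its direction.

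**Figure D3:**
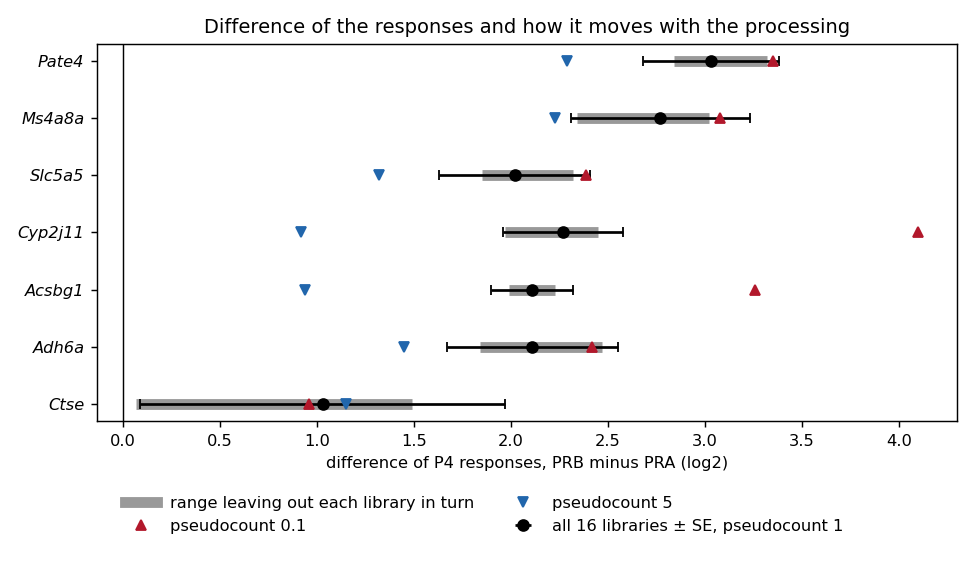
How far the PRB response exceeded the PRA response (log2) for each gene, with its SE, its range when each library is left out in turn, and its value with pseudocounts of 0.1 and 5. For 6 genes every value is at 0.92 or above, whereas the range of Ctse goes down to 0.07.

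The 4 PRB P4 libraries did not rank the genes alike. Replicate 2 held the highest value of 4 genes (Pate4, Slc5a5, Acsbg1 and Adh6a), replicate 3 of 2 (Ms4a8a and Cyp2j11), replicate 1 of Ctse alone and replicate 4 of none. Relative to the group median, replicate 3 was 1.55 higher on the log2 scale in Ms4a8a and 1.28 higher in Cyp2j11 but at -1.38 in Adh6a. Replicate 3 also had the highest sums of glandular markers (88.5 FPKM against 24.3 at the lowest in the group) and leukocyte markers (320 against 120 at the lowest), and the lowest smooth muscle sum (1030 FPKM). Over all libraries the sum of the 9 luminal and general epithelial markers was 1260 to 1560 FPKM in PRB P4, 884 to 921 FPKM in PRB oil, 978 to 1240 FPKM in PRA P4 and 852 to 961 FPKM in PRA oil. None of the 9 was listed at 0. The sum was higher in PRB P4 than in PRA P4 without overlap, by far less than the 7 genes, and 1 of the 9 markers, Cldn3 (mean 589 FPKM in PRB P4 and 379 FPKM in PRA P4), passed the test between the strains with P4. The sum of the 6 uterine marker genes, Pgr among them, was 645 to 718 FPKM in PRB P4 and 588 to 618 FPKM in PRA P4, without overlap. Within that list Esr1 went the other way, averaging 48.3 FPKM in PRB P4 and 66.1 FPKM in PRA P4 (log2 difference -0.45, limma, adjusted p = 0.00176). Its difference of responses also passed, at -0.45 (limma, adjusted p = 0.0457). The sums for stroma, endothelium and mesothelium overlapped between the strains with P4: 921 to 1030 FPKM in PRB P4 and 828 to 1010 FPKM in PRA P4 for stroma, 126 to 152 and 99.5 to 129 in the same order for endothelium, and 90.5 to 113 and 71.5 to 106 for mesothelium. Of the 5 endothelial markers, 2 were higher in PRB than in PRA with P4, Pecam1 (log2 difference 0.48) and Tek (0.59). Markers of oviduct summed to 6.74 to 10.2 FPKM in PRB P4 and 7.68 to 8.66 FPKM in PRA P4, and those of ovary to 15.1 to 19.1 FPKM in PRB P4 and 15.4 to 17.3 FPKM in PRA P4. Fat markers varied widely within groups, from 27.6 to 94 FPKM in PRB P4, 39.2 to 168 in PRB oil, 30.9 to 116 in PRA P4 and 31.4 to 301 in PRA oil. The part of cell composition in the results was not tested.

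**Figure D4:**
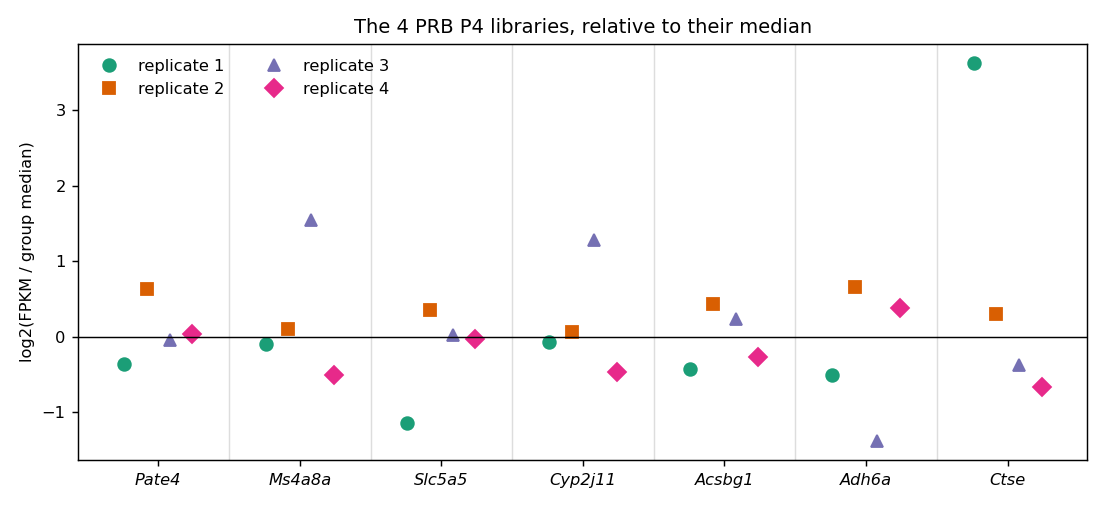
Each PRB P4 library relative to the median of its group (log2 of FPKM over the group median), by gene. Replicate 3 is far above the median in Ms4a8a (1.55) and Cyp2j11 (1.28) and far below it in Adh6a (-1.38), and replicate 1 is 3.63 above it in Ctse.

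Across the 16 libraries, the log2(FPKM + 1) profile of each gene followed the mean profile of the other 6, with Pearson r of 0.969 for Pate4, 0.956 for Acsbg1, 0.952 for Ms4a8a, 0.943 for Slc5a5, 0.933 for Adh6a, 0.925 for Cyp2j11 and 0.686 for Ctse. These are descriptions, since all points share the 4 groups and the genes were chosen for their pattern over them. Among named features outside the group, the profiles most like the mean profile of the 7 were those of Ugt2a2 (r = 0.988), a UDP-glucuronosyltransferase gene, Il16 (0.984), a cytokine gene, the matrix metalloproteinase gene Mmp19 (0.974), Leprot (0.974), Apbb3 (0.972), the semaphorin gene Sema3c (0.972), Cited1 (0.972), Hmgn5 (0.972), Glyr1 (0.971) and Ggta1 (0.971), each over 16 libraries. The first of them repeated the off-to-on pattern at a low level. Ugt2a2 stood at 5.24, 6.07, 4.54 and 4.05 FPKM in PRB P4, against 0.00552 to 0.0462 FPKM in PRB oil. With P4, the PRA libraries had 1.16, 1.35, 0.93 and 0.768 FPKM, against 0.0178 to 0.0357 FPKM in PRA oil. Il16, in contrast, was present in every group, at 31 to 39.2 FPKM in PRB P4, 13.1 to 15.8 FPKM in PRB oil, 16.1 to 17.3 FPKM in PRA P4 and 13.7 to 14.2 FPKM in PRA oil. Calca, the calcitonin gene, had the largest difference of responses outside the group, at 18.2, 36.6, 182 and 34.7 FPKM in PRB P4 and 4.83, 8.21, 8.83 and 6.78 FPKM in PRA P4, and its highest library was the one in which Ms4a8a and Cyp2j11 were highest. Its difference of 2.61 (SE 0.66) did not pass the test (limma, adjusted p = 0.0569). The growth factor gene Areg was in contrast highest in PRB P4 replicate 2, at 16.4, 34.7, 15.7 and 29 FPKM in PRB P4 against 5.38, 5.81, 6.17 and 3.05 FPKM in PRA P4.

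Relatives of the 7 genes were taken from 7 lists of the same family or pathway, 155 genes in all without the 7, of which 149 were in the table and 78 were high enough to test. Rises and falls of relatives are those with an adjusted p under 0.05 (limma, Benjamini-Hochberg over 15408 features). With P4, 22 relatives rose and 25 fell in PRB, and 18 rose and 30 fell in PRA; over all features tested 36.2% rose and 32.9% fell in PRB, and 36.6% rose and 33.2% fell in PRA. For the difference of responses 2 relatives were higher in PRB and 1 was lower, beside 1.47% and 0.811% of all features tested. These small counts moved with single libraries, to 5 higher without PRB P4 replicate 3, 4 higher without PRA P4 replicate 1, and 1 higher without any of 8 other libraries. With P4 alone, 12 were higher and 6 lower in PRB than in PRA, beside 7.75% and 8.29%. With oil 0 of the 78 passed the test (limma, 1 higher and 5 lower at an unadjusted p under 0.05), beside 0.117% of all features. The median difference of responses of the 78 was 0.11, against 2.11 for the 7 genes that were chosen for it.

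The tested relatives of Cyp2j11 went the other way, while some relatives too low for the test did not. All 7 tested genes of the Cyp2 epoxygenase and epoxide hydrolase list fell with P4 in PRB and 6 of the 7 fell in PRA, and none passed the test for the difference of responses (limma, 1 higher and 0 lower at an unadjusted p under 0.05). Cyp2j9 stood at 0.959, 0.802, 0.781 and 1 FPKM in PRB P4 and at 3.99 to 4.97 FPKM in PRB oil, with log2 responses of -1.57 in PRB and -1.78 in PRA. Cyp2j6 averaged 3.6 ± 0.697 FPKM in PRB P4 and 7.07 ± 0.34 FPKM in PRB oil (SD, n = 4 each), with responses of -0.82 in PRB and -0.90 in PRA. Por, the reductase that supplies electrons to these enzymes, had responses of -0.43 in PRB and -0.77 in PRA. The calls of Ephx1 and Ephx2, the epoxide hydrolase genes, in PRB were lost under 9 and 8 of 23 alternatives. Without the filter on low values, Cyp2j13 (0.24, limma, adjusted p = 0.000677), Cyp2u1 (0.24, adjusted p = 0.0344) and Cyp2c55 (0.10, adjusted p = 1.69e-05) rose with P4 in PRB, at means of 0.191, 0.979 and 0.0796 FPKM in PRB P4 against 0.00901, 0.674 and 0.00581 FPKM in PRB oil. Cyp2c44 fell in that fit (-0.50, adjusted p = 0.000531).

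The relatives of Adh6a and Acsbg1 were mixed. Of the 15 alcohol and aldehyde dehydrogenases tested, 6 rose and 3 fell with P4 in each strain, and 0 passed the test for the difference of responses (limma, 2 higher and 2 lower at an unadjusted p under 0.05). Adh5, which acts on S-nitrosoglutathione and formaldehyde adducts, rose in both strains. It averaged 163 FPKM in PRB P4, 53.3 in PRB oil, 138 in PRA P4 and 52.9 in PRA oil. Of the 14 other acyl-CoA synthetases tested, 6 rose and 4 fell in PRB, and 4 rose and 6 fell in PRA. Acss3, which activates short-chain acids in mitochondria, had a difference of responses of 1.23 (SE 0.23, limma, adjusted p = 0.0147), and it arose from a fall in PRA: the mean was 7.21 FPKM in PRB P4, 6.68 in PRB oil, 2.55 in PRA P4 and 6.87 in PRA oil. The fatty acid transport protein gene Slc27a3 had the opposite sign, -0.88 (SE 0.21, limma, adjusted p = 0.0441), with means of 9.41 FPKM in PRB P4, 24.2 in PRB oil, 16.7 in PRA P4 and 22.6 in PRA oil. The Acss3 call held under all 22 alternatives, with values between 1.10 and 1.35 when 1 library was left out. The Slc27a3 call was lost under 14 of them, 12 of which leave out 1 library, with values between -0.98 and -0.75.

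In the Slc5 and iodide list 2 of 10 tested genes rose and 3 fell in PRB, and 3 rose and 5 fell in PRA. The inositol transporter gene Slc5a11 rose in both, with responses of 1.75 in PRB and 2.33 in PRA, the larger value being in PRA without a passed test for the difference (-0.57, SE 0.49, adjusted p = 0.613). Iyd, the iodotyrosine deiodinase that recovers iodide in the thyroid, was lower in PRB than in PRA with P4, averaging 0.389 FPKM in PRB P4, 0.967 in PRB oil, 3.08 in PRA P4 and 2.04 in PRA oil (log2 difference with P4 -1.47). With oil the log2 difference was -0.61 and its difference of responses did not pass the test (-0.86, SE 0.33, limma, adjusted p = 0.212). Duox2, an oxidase of thyroid hormone synthesis, averaged 1.03 FPKM in PRB P4 and 0.955 FPKM in PRA P4.

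Among the 20 other aspartic proteases and cathepsins tested, 6 rose and 6 fell in PRB, 4 rose and 7 fell in PRA, and 7 were higher and 0 lower in PRB than in PRA with P4 (limma, 10 higher and 0 lower at an unadjusted p under 0.05). Ctsd, cathepsin D, was the most abundant and had responses of 1.78 in PRB and 1.95 in PRA, with means of 820 FPKM in PRB P4, 237 in PRB oil, 888 in PRA P4 and 228 in PRA oil. Pga5, a pepsinogen gene, had responses of 3.03 in PRB and 2.54 in PRA. Ctsh, cathepsin H, was the only one called for the difference of responses, at 0.47 (SE 0.11, limma, adjusted p = 0.0338), with means of 49.7 FPKM in PRB P4, 41.4 in PRB oil, 35.2 in PRA P4 and 40.8 in PRA oil. That call was lost under 11 of 22 alternatives, 10 of which leave out 1 library, with values between 0.42 and 0.53. The Pate list had 4 tested relatives: Pate2 rose in PRB (1.77), Lypd2 fell in both strains (-1.86 in PRB and -1.57 in PRA), and Ly6d and Ly6e did not pass the test. Of the 8 tested Ms4a relatives, Ms4a4d rose in both strains, by 0.98 in PRB and 0.56 in PRA, and Tmem176b fell in both (-0.26 in PRB and -0.28 in PRA).

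**Figure D5:**
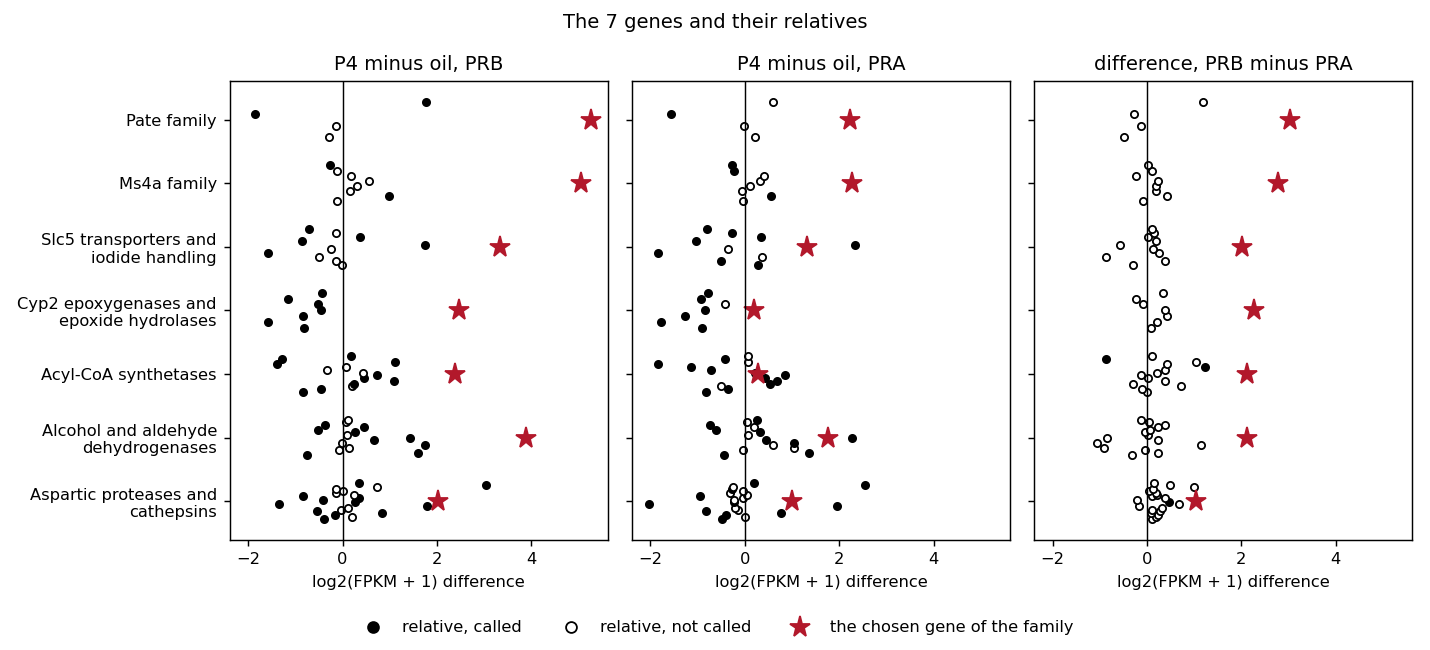
Log2 responses to P4 in PRB and PRA and their difference for the 78 tested relatives (circles, filled where called) and for the chosen gene of each family (red star). The tested genes of the Cyp2 epoxygenase and epoxide hydrolase list, Por among them, lie left of 0 in both responses. Cyp2j11 lies right of it, at 2.47 and 0.20. Relatives too low for the test are not drawn.

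On the chromosomes, up to 3 annotated genes on each side of each of the 7 were examined, 43 in all with overlapping ones, of which 24 were high enough to test. On the higher side of Pate4 the nearest of these genes, Acrv1, lay 1080 kb away. For the difference of responses 2 were called higher in PRB and 0 lower, beside 1.47% and 0.811% of all features tested. At an unadjusted p under 0.05, 5 were higher and 2 lower (limma). Hyls1, a ciliogenesis gene 36.7 kb from Pate4, averaged 21.9 FPKM in PRB P4, 6.33 in PRB oil, 8.46 in PRA P4 and 6.09 in PRA oil, a difference of 1.20 (SE 0.28, limma, adjusted p = 0.0426) whose call was lost under 16 of 22 alternatives, 13 of them leaving out 1 library, with values between 1.04 and 1.38. Map1s, a microtubule-associated gene 13.2 kb from Slc5a5, had a difference of 0.52 (SE 0.11, limma, adjusted p = 0.0254), lost when any of 6 libraries was left out, with values between 0.47 and 0.58. Idh3a, a citric acid cycle gene 0.216 kb from Acsbg1, had responses of 0.93 in PRB and 1.01 in PRA. Adh1, 22.6 kb from Adh6a, had responses of -0.76 in PRB and -0.45 in PRA.

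Adh6b, a neighbour of Adh6a at 10.6 kb, was its closest relative by sequence (73% identical over 1107 bases). In both strains Adh6b was higher in every P4 library than in every oil library. It was below the level required for testing, at 1.82, 2.93, 1.94 and 2.44 FPKM in PRB P4, 0.00846 to 0.0515 FPKM in PRB oil, 0.484, 0.466, 0.572 and 0.569 FPKM in PRA P4 and 0.0261 to 0.078 FPKM in PRA oil. The groups with P4 did not overlap, and PRB P4 averaged 2.28 FPKM against 0.523 FPKM in PRA P4. With no filter on low values, the one fit that included it, the difference of responses was 1.14 (limma, adjusted p = 0.000289). Adh7, 79.9 kb from Adh6a, averaged 1.03 FPKM in PRB P4, 0.264 in PRB oil, 0.556 in PRA P4 and 0.362 in PRA oil, with a difference of 0.49 in that fit (adjusted p = 0.0243). Unlike Adh6a, Adh6b was not lowest in PRB P4 replicate 3. Around Cyp2j11, the low neighbours Cyp2j13 and Cyp2j8 averaged 0.191 and 0.129 FPKM in PRB P4 and 0.0539 and 0.0307 FPKM in PRA P4, and none of the 6 nearest Ms4a genes of the table around Ms4a8a averaged more than 0.432 FPKM in any group.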

How the data were processed

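Whole-uterus RNA-seq libraries, 16 in 4 groups of 4, were taken from 1 table that the authors deposited as FPKM per feature. TopHat2 2.0.4, Cufflinks 2.0.2, Cuffdiff and mm10 are named in the submitters' processing notes without roles; the sources used here do not state the annotation, the strandedness or how libraries were scaled. Since the values are FPKM and not counts, log2(FPKM + 1) of the 15408 features averaging 1 FPKM or more was fitted with limma 3.58.1 in R 4.3.3 (1 mean per group, all 16 libraries, intensity trend, two-sided, Benjamini-Hochberg over all features), and a feature was called at an adjusted p under 0.05. The procedure was tested on simulated data. Depth was estimated from the spacing of low values of 2170 single-transcript features, of which 77.9% to 87.4% per library came out as whole fragments within 0.15, so fragment numbers are approximate. What separates the replicates of a group is not given beyond the word bioreplicate, so p-values measure the spread between these samples. No library duplicated another.

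The 7 genes, the 7 lists of relatives and the 11 lists of cell type markers were chosen with earlier results of these data known. Named besides the 7 genes and Pgr were the 10 most similar profiles, the 10 largest other differences of responses, up to 3 neighbours on each side, relatives called for the difference of responses, up to 4 called relatives per list for another contrast and the 2 most expressed members of a list otherwise, and marker genes; some of these are not reported here. Rmrp, Fam73a, Cyp2c44, Cyp2c55 and Cyp2u1 were named after their values were seen. The 23 alternatives comprised other pseudocounts, no filter, quantile and median-ratio normalization, only the libraries of a contrast, a replicate block and leaving out each library.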

Additional observations from a re-analysis of the deposited data

Results flagged for a closer look

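Of 32 groups of 4 libraries examined (the 7 genes and Pgr in 4 groups), 6 held a library far from the nearest other relative to the group's whole range (Dixon's critical value for 4 samples); chance flags about 1 in 20 groups. In PRB P4 these were Ms4a8a in replicate 3 (125 FPKM), Ctse in replicate 1 (452 FPKM) and, as the lowest value, Pgr in replicate 3 (78.5 FPKM). In PRA P4 they were Acsbg1 in replicate 1 (0.881 FPKM) and Slc5a5 in replicate 4 (6.14 FPKM). In PRA oil, Cyp2j11 in replicate 2 (0.00811 FPKM) was set apart by about 1 fragment, the other 3 libraries being listed at 0.

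Among the relatives, the response to P4 differed between the strains for Acss3 (difference 1.23), Slc27a3 (-0.88) and Ctsh (0.47), by the test of the difference itself (limma, adjusted p of 0.0147, 0.0441 and 0.0338).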

How the results depend on the processing

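No member of the 7 changed the direction of its difference of responses under any of 22 alternatives, but that of Ctse fell to 0.07 without PRB P4 replicate 1. The genes were chosen for that direction on these libraries, so nothing is read from its being kept. The median log2 values over the 7 genes were 5.38 and 1.86 for the PRB response with pseudocounts of 0.1 and 5, against 3.33. In the same order they were 2.05 and 0.64 for the PRA response, against 1.31, 3.08 and 1.32 for the difference of responses, against 2.11, and 2.81 and 1.45 for PRB against PRA with P4, against 2.28; these follow from the shrinkage that a pseudocount applies to low levels. Leaving out each library gave medians of 3.16 to 3.62, 1.05 to 1.45, 1.99 to 2.32 and 2.24 to 2.46.

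Relatives called for the difference of responses numbered 5 higher and 0 lower with no filter (Acss3, Adh6b, Adh7, Ctsh and Cyp2c55, the last at under 0.1 FPKM) and 1 higher and 0 lower after quantile normalization, against 2 and 1. Leaving out 1 library gave 1 to 5 higher and 0 to 2 lower. The ranges without 1 library were 20 to 25 higher and 22 to 26 lower for the PRB response, 17 to 23 and 26 to 31 for the PRA response, 9 to 15 and 5 to 7 for PRB against PRA with P4, and 0 and 0 with oil. Over all features, PRB against PRA with P4 gave 1640 calls from the libraries of that contrast alone, against 2471, and with oil 33 with no filter and 6 from the contrast alone, against 18. Without 1 library the counts over all features were 10183 to 10676 and 10206 to 11121 for the PRB and PRA responses, 155 (without PRA P4 replicate 4) to 508 for the difference of responses, 1416 (without the same library) to 2632 with P4 and 8 (without PRA oil replicate 2) to 30 (without PRB P4 replicate 3) with oil. The response of Glyr1 in PRA turned to -0.0031 after quantile normalization. The causes of these shifts were not tested.

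Of 24 correlations between same-numbered libraries 6 exceeded 0.1 (-0.229 to 0.312). Differently numbered libraries were not compared, so whether replicate numbers pair the samples was not settled. With the replicate block, 467 features were called for the difference of responses, against 352, with 2 relatives higher and 1 lower as before, 10705 and 10798 for the PRB and PRA responses, 2569 with P4 and 19 with oil. The block left the medians of the 7 genes as they were, with 23 and 24 relatives called for the PRB response, 19 and 30 for the PRA response, 12 and 6 with P4 and 0 with oil.

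With about 54.6 M to 66.8 M fragments per library, oil levels of Pate4 and Cyp2j11 rest on fewer than 10 fragments, so their fold over oil is not given.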
